A study of Mus musculus with 6 samples.

Results

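The entries described here are those that carry only a number pair, such as 11_15827, in place of a miRBase name in a table of the small RNAs of islet-derived small extracellular vesicles (sEVs). They were chosen by name alone, as every entry whose name lacks the prefix that miRBase gives to mouse miRNAs, and they make up 239 of the 718 entries of the table. The sEVs were released by primary islets of WT C57/B6J mice that were cultured in serum-free medium, and were pelleted from that medium by ultracentrifugation. Islets of mice on normal chow diet (NCD) gave the 3 nid-sEV libraries, and islets of mice on high-fat diet (HFD), the diet used to bring about β cell compensation, gave the 3 aid-sEV libraries. The labels give neither the age of the donors nor whether the libraries of a group came from separate mice, so the p-values measure the spread between these libraries only, which may be technical.

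A miRNA is cut from a hairpin precursor by Drosha and Dicer and is then loaded onto an Argonaute protein, where its seed directs it to target mRNAs. miRBase is the registry that gives such RNAs their names. A small RNA library of vesicles holds more than miRNAs, since pieces of tRNAs, Y RNAs, rRNAs and mRNAs are sequenced with them, and programs that search reads for hairpin-like loci list candidates under provisional numbers. The sources used here do not say how the numbered entries were found, so no RNA class is assigned to them. No sequence of them was analysed here, and none is printed.

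The number pairs followed a fixed order. The first number or letter of a pair took 21 values, 1 to 19, X and Y, which are the names of the mouse chromosomes. The second number ran from 226 to 100599, with 0 overlaps between the ranges of different first parts, which followed each other in alphabetical order. Between 1 and 20 entries shared a first part. The entries with a first part of 11 held 42.5% of the RPM of all 239 entries, almost all of it in 11_15827, whereas the 20 entries with a first part of 8 held 4.05%. Whether this first part is a chromosome is not stated, and no position is given for any entry. Only 3 pairs of entries had second numbers that were 1 apart, and none of these 6 entries had more than 12 reads in a library.

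Levels are given as RPM, the reads of an entry scaled to a common library total. The totals were 129152, 65671 and 50534 reads for nid-sEV replicates 1, 2 and 3 and 519315, 352244 and 122266 reads for aid-sEV replicates 1, 2 and 3, and 3 reads, taken as the lowest level the depth can show, correspond to between 5.78 and 59.4 RPM. The nid-sEV replicate 1 library stood apart. Its summed level of 5 islet endocrine miRNAs (miR-375-3p, miR-7a-5p, miR-7b-5p, miR-184-3p and miR-182-5p) was 77180 RPM, against 196293 to 363458 RPM in the other 5 libraries, although all 5 were detected in it. Most of each sum was miR-375-3p, at 56584 RPM in this library and 136424 to 346480 RPM in the others. The levels of miR-184-3p (805 RPM) and miR-182-5p (2462 RPM) were also lowest in it. By contrast, miR-7a-5p was highest in it, at 13395 RPM, and miR-7b-5p, at 3933 RPM, was the highest of the nid-sEVs. In nid-sEV replicate 1 the acinar (3 miRNAs), mesenchymal (5) and endothelial (2) markers had the highest sums of all libraries, 8997, 24080 and 3717 RPM. Not every marker was highest there. Most of the mesenchymal sum was miR-143-3p, at 19411 RPM, while miR-145a-5p, miR-199a-3p and miR-214-3p were each highest in another library. The acinar miR-216b-5p had 132 RPM there and 442 RPM in nid-sEV replicate 2. The 4 red cell and liver markers summed to between 4611 and 10476 RPM in nid-sEVs and between 414 and 1548 RPM in aid-sEVs, and the 5 leukocyte markers to between 152 and 435 RPM and between 24.5 and 38.5 RPM. Among the leukocyte markers, miR-150-5p made up 416 of the 435 RPM of nid-sEV replicate 3. The 24.5 RPM of aid-sEV replicate 3 equals 3 reads there. The part of these other cells in the results below was not tested. All levels are shares of a library, so that fewer vesicles of a kind and less RNA in each vesicle cannot be told apart.

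Among nid-sEVs, 33.4% of all reads belonged to numbered entries in replicate 1, 9.41% in replicate 2 and 9.45% in replicate 3. In aid-sEVs they took 7.71%, 6.61% and 9.22% of the reads of replicates 1, 2 and 3. Every aid-sEV library was thus below every nid-sEV library, but the closest libraries could not be separated, since the 95% Wilson interval was 9.06% to 9.39% for aid-sEV replicate 3 and 9.19% to 9.64% for nid-sEV replicate 2. The group means were 17.4% ± 13.8 in nid-sEVs and 7.85% ± 1.31 in aid-sEVs (SD, n = 3 each), a difference of 9.58 percentage points to the side of nid-sEVs (p = 0.10 by a two-sided exact permutation test, and no lower p is possible with 3 libraries against 3). This difference rested on nid-sEV replicate 1. Without it the mean of nid-sEVs was 9.43%, and the groups differed by 1.59 percentage points. Only counting error is covered by these intervals and by the floors, and molecules copied by PCR may have been counted more than once.

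**Figure D1:**
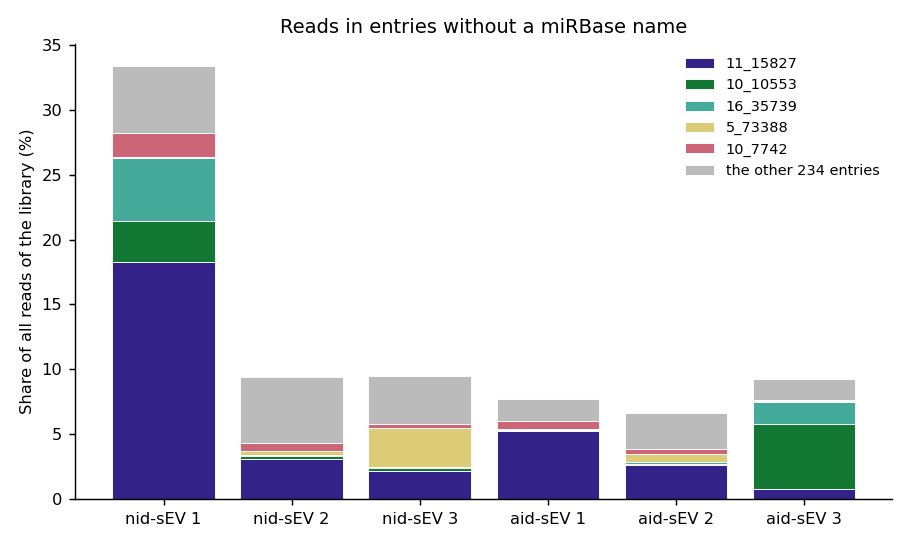
Share of all reads of each library (y axis, percent) taken by the entries without a miRBase name, one stacked bar per library, with the 5 entries of the highest mean RPM in colour and the other 234 in grey. The bar of nid-sEV replicate 1 reaches 33.4% and the other 5 lie between 6.61% and 9.45%; 11_15827 is the largest part in 4 libraries, 5_73388 in nid-sEV replicate 3 and 10_10553 in aid-sEV replicate 3.

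The reads were held by few entries. The highest entry of a library took 54.7%, 32.8% and 31.9% of the reads of numbered entries in nid-sEV replicates 1, 2 and 3, and 67.5%, 39.7% and 54.4% in aid-sEV replicates 1, 2 and 3. The 10 highest took between 75.7% and 95.9%, and between 5 and 24 entries were enough for 90% of the reads. The inverse Simpson number, which gives how many equally abundant entries would be as concentrated, lay between 2.14 and 7.32. The named miRNAs of the same libraries were spread more evenly in 5 of the 6 libraries, with inverse Simpson numbers between 14.8 and 19.3. The exception was nid-sEV replicate 3, where the number was 5.96 for the named miRNAs and 6.15 for the numbered entries. The share of the highest entry was 39.8% ± 12.9 in nid-sEVs and 53.9% ± 13.9 in aid-sEVs, and the groups overlapped (SD, n = 3 each, two-sided exact permutation test, p = 0.30). This test cannot give a p under 0.10 here, so it does not show that concentration was equal. The other measures had means on the same side, also with overlap. The mean share of the 10 highest was 82.6% in nid-sEVs and 90.1% in aid-sEVs, and the mean inverse Simpson number was 5.48 and 3.35.

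Most entries were at the other end of the scale. The median entry had a mean of 16.1 RPM over the 6 libraries and 15 reads in all 6 together, while the median named miRNA had 52.2 RPM and 63 reads. A mean of 1000 RPM or more was reached by 11 numbered entries (4.60%) and by 67 named miRNAs (13.99%). At the low end, 87 numbered entries (36.4%) and 115 named miRNAs (24.01%) had a mean under 10 RPM. No entry of the table was detected in fewer than 2 libraries. Of the numbered entries, 55 were detected in exactly 2 libraries and 41 in all 6, which is 17.2%, compared with 37.2% of the named miRNAs. With 77 entries at 10 reads or fewer over all libraries, many comparisons between groups had little precision. The values of 21 numbered entries were identical in every library to those of another entry, all with few reads, 9 at most over the 6 libraries.

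The number of entries detected was 153, 99 and 82 in nid-sEV replicates 1, 2 and 3 and 194, 188 and 173 in aid-sEV replicates 1, 2 and 3, so that the groups did not overlap. When each library was brought to the 50534 reads of the smallest one, by the exact expected number of entries in a draw without replacement, 119, 95.6 and 82 entries were expected in nid-sEVs and 102, 111 and 136 in aid-sEVs. The groups then overlapped, with means of 99.02 ± 19.0 and 116 ± 17.8 (SD, n = 3 each, two-sided exact permutation test, p = 0.40). For the named miRNAs the mean at this depth was also higher in aid-sEVs, at 335 against 263. Between 219 and 292 of them were expected in nid-sEV libraries and between 334 and 338 in aid-sEV libraries. These groups did not overlap (p = 0.10 by the two-sided exact permutation test, its lowest possible value). Whether this differed from the numbered entries was not tested. Drawing fewer reads does not undo the choice of entries, each of which was detected in at least 2 libraries at full depth. Absent from all nid-sEV libraries were 105 named miRNAs (21.9%) and 50 numbered entries (20.9%), which are similar shares. From all aid-sEV libraries, 6 (1.25%) and 5 (2.09%) were absent. The equal-depth counts and their p-values may thus still carry the full depth of the libraries, and how far they do was not tested.

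The most abundant entry, 11_15827, was also the highest entry of the whole nid-sEV replicate 1 library, above every named miRNA. It had 182792, 30866 and 21728 RPM in nid-sEV replicates 1, 2 and 3 and 52042, 26255 and 7500 RPM in aid-sEV replicates 1, 2 and 3. The groups overlapped, and the highest library exceeded the lowest 24.4-fold. Its rank among all entries ran from 1 in nid-sEV replicate 1 to 24 in aid-sEV replicate 3, and over the means of the 6 libraries it ranked 4. On the log2(RPM + 1) scale aid-sEVs differed from nid-sEVs by -1.19 (SE 1.02), which did not pass the test (adjusted p = 0.47 by limma).

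The entry 10_7742 kept a nearly fixed proportion to 11_15827. It had 18227, 5558 and 2949 RPM in nid-sEVs and 6102, 3268 and 851 RPM in aid-sEVs, in the same order of libraries. For each of its reads, 11_15827 had between 5.55 and 10.03 reads, a spread of 1.81-fold while each entry alone varied over 20-fold. Of the 45 pairs among the 10 most abundant entries this was the smallest spread, and the median pair spread 143-fold. The pair was picked after the ratios were seen and shares its libraries, so the value is a description. The next entry of this kind, 9_96451, had 21494, 8223 and 970 RPM in nid-sEVs and 3231, 2027 and 417 RPM in aid-sEVs, and its proportion to 10_7742 varied 4.50-fold. Neither entry was called, with adjusted p-values of 0.36 and 0.34 by limma.

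A second pattern was that of 10_10553 and 16_35739, which were high in 1 library of each group. The entry 10_10553 had 31250, 2452 and 2434 RPM in nid-sEVs and 168, 664 and 50128 RPM in aid-sEVs. The corresponding levels of 16_35739 were 48726, 426 and 475 RPM and 890, 1610 and 16914 RPM. Their summed share was 7.998% in nid-sEV replicate 1 and 6.70% in aid-sEV replicate 3, but at most 0.291% in each of the other 4 libraries. These are 2 of the 3 entries with the largest ratios between replicates of a group among the 41 detected everywhere, 299-fold for 10_10553 within aid-sEVs and 114-fold for 16_35739 within nid-sEVs. The remaining one was 2_54680, with 1293, 91.4 and 79.2 RPM in nid-sEVs and 17.3, 5.68 and 303 RPM in aid-sEVs, which was again high in nid-sEV replicate 1 and aid-sEV replicate 3. Differences between replicates of this size left no group comparison for these entries, whose adjusted p-values by limma were 0.67, 0.91 and 0.34.

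Other entries peaked in other libraries. The levels of 5_73388 were 1038, 3563 and 30158 RPM in nid-sEVs and 859, 6413 and 957 RPM in aid-sEVs, so that nid-sEV replicate 3 held 70.2% of its summed RPM. The levels of 3_57684 were 836, 8268 and 416 RPM in nid-sEVs and 961, 9076 and 3566 RPM in aid-sEVs, and it was highest in replicate 2 of either group. For 8_91255 they were 10135, 6335 and 1524 RPM and 790, 6714 and 303 RPM. For 6_75745 they were 488, 1508 and 3621 RPM and 884, 815 and 442 RPM, a narrower range. None of these 4 entries passed the test, and their groups overlapped. Of the 10 most abundant entries, only 15_34218, described further on, had groups that did not overlap.

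**Figure D2:**
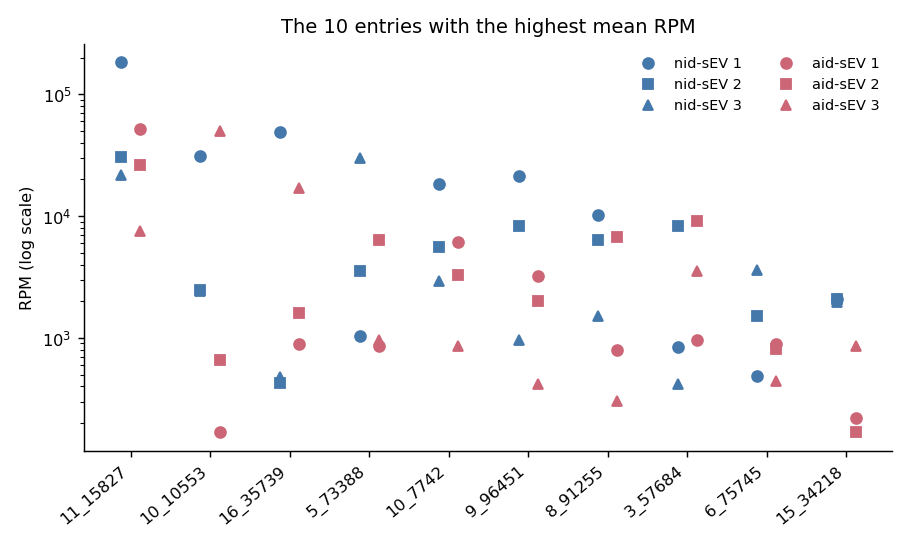
RPM on a log axis of the 10 numbered entries with the highest mean RPM (x axis), one point per library, with nid-sEVs in blue and aid-sEVs in red and the replicate given by the shape. The points of nid-sEV replicate 1 and aid-sEV replicate 3 lie far above the others for 10_10553 and 16_35739, and 15_34218 is the one entry with all blue points above all red ones.

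The same unevenness was seen over the 43 numbered entries with a mean of at least 100 RPM. An entry can pass this filter through a single high library, so the shares and standard deviations that follow are a description. In 19 of the 43 (44.2%) a single library held more than 50% of the RPM summed over the 6 libraries, against 22 of the 193 named miRNAs of that level (11.4%). These single libraries were of nid-sEVs for 17 of the 19, with 7 in replicate 3 and 5 each in replicates 1 and 2. They were of nid-sEVs for all 22 of the named miRNAs too, with 8, 10 and 4 in replicates 1, 2 and 3. An example among the numbered entries is 8_92068, with 173 reads in nid-sEV replicate 2 and between 0 and 3 in each other library. It is named here after its values were seen. The median pooled standard deviation between replicates was 1.76 on the log2(RPM + 1) scale for the numbered entries and 0.81 for the named miRNAs. Within aid-sEVs the median standard deviation was 1.36 for the numbered entries and 0.35 for the named miRNAs. The gap was narrower within nid-sEVs, where these medians were 1.65 and 0.97. It was also present at high levels. The 11 numbered entries at 1000 RPM or more had a median pooled standard deviation of 1.90, and the 67 named miRNAs of that level one of 0.60. Of the 43 and the 193, 10 numbered entries and 37 named miRNAs had at least 1 library at 0 reads.

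All 6 pairs of libraries within a group were less alike in the numbered entries than in the named miRNAs, but only 5 of the 9 pairs between groups were. Over the 43 numbered entries, Pearson's correlation of log2(RPM + 1) was between 0.42 and 0.56 within nid-sEVs and between 0.52 and 0.79 within aid-sEVs. Between the groups it ranged from 0.30 to 0.78. The nid-sEV replicate 1 library correlated with the 3 aid-sEV libraries at 0.69, 0.76 and 0.78, and with nid-sEV replicates 2 and 3 at only 0.42 and 0.44. In the 193 named miRNAs the order was the reverse for this library, with 0.82 and 0.74 to the other nid-sEV libraries and between 0.52 and 0.60 to the aid-sEV libraries. Within aid-sEVs the named miRNAs correlated at 0.93 to 0.96. These correlations run across entries, which share libraries and depth and are not independent replicates. The filter on the mean RPM of the same libraries bears on them too.

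**Figure D3:**
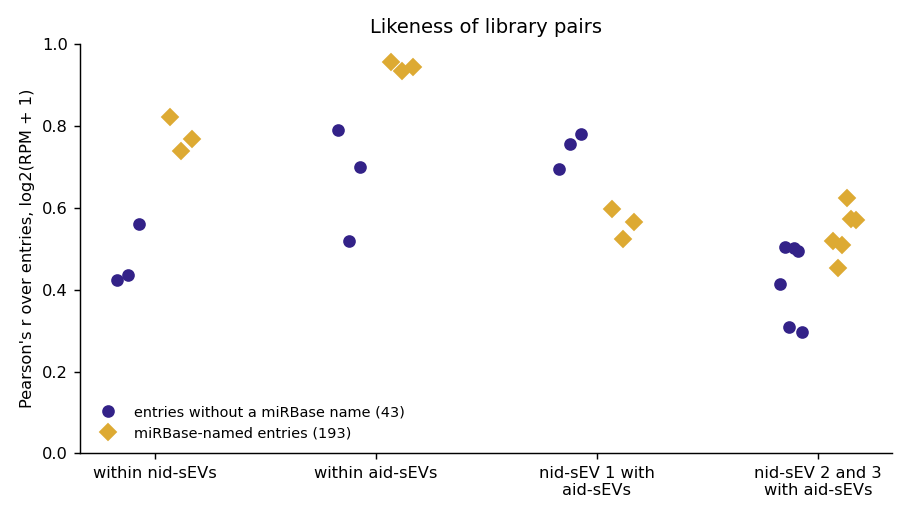
Pearson's correlation of log2(RPM + 1) for each pair of libraries (one point per pair), over the 43 numbered entries (circles) and the 193 named miRNAs (diamonds) with a mean of at least 100 RPM. For numbered entries the pairs of nid-sEV replicate 1 with aid-sEVs (0.69 to 0.78) lie above the pairs within nid-sEVs (0.42 to 0.56), whereas the named miRNAs show the opposite order.

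The groups were compared for each entry with limma on log2(RPM + 1), with p-values adjusted over all 718 entries. An entry was called when its adjusted p was under 0.05 and its log2 fold change was above 1 or below -1. Of the 239 numbered entries, 21 (8.79%) were called higher in aid-sEVs, where 15.6% of all entries were, and 5 (2.09%) were called lower, where 1.81% of all entries were. With RPM divided by TMM factors the split was 24 higher and 0 lower, where 17.3% and 0.418% of all entries were called. The median log2 fold change was 0.75 for the numbered entries and 1.11 for all entries, while more entries were at 0 reads in the nid-sEV libraries, which were sequenced less deeply on the whole. At a mean of at least 100 RPM the medians were -1.69 for the 43 numbered entries, 0.47 for the 193 named miRNAs and 0.07 for all 236 entries.

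Of these 43 entries, 14 reached a mean of 100 RPM in nid-sEVs only and 2 in aid-sEVs only, so that the filter itself bears on their direction and the counts that follow are a description. The log2 fold change was below 0 in 36 of the 43, as in 22 of the 27 that reached 100 RPM in both groups, and 35 had their highest library among the nid-sEVs, as did 101 of the 193 named miRNAs. Every aid-sEV library was below every nid-sEV library in 14 of the 43, and above in 0, where the shares over all 236 entries of this level were 17.4% and 28.8%. The named miRNAs had 27 and 68 such entries. With RPM divided by TMM factors, 35 of the 43 were still below 0, and with RPM taken on the named miRNAs alone 37 were. Over all levels, 20 numbered entries were lower in every aid-sEV library and 25 were higher, where the shares of all 718 entries were 7.52% and 24.2%. Of the 25, 24 had 0 reads in every nid-sEV library.

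The median log2 fold change over all numbered entries, above 0, and their summed level outside the 10 most abundant pointed in opposite directions. These 10 were picked by the mean RPM of the same libraries. The others still include entries with a mean of at least 100 RPM, counted above, so the shares that follow are a description. With the 10 most abundant entries set aside, the other 229 took 2.51%, 2.67% and 3.03% of the remaining reads in nid-sEV replicates 1, 2 and 3 and 1.17%, 0.959% and 1.12% in aid-sEV replicates 1, 2 and 3. These groups were apart, with means of 2.74% ± 0.266 and 1.08% ± 0.111 (SD, n = 3 each) and a ratio of 2.52 (p = 0.10 by the two-sided exact permutation test, its lowest possible value). Here nid-sEV replicate 1 was the lowest library of its group. With 11_15827 alone set aside, the shares were 18.5%, 6.53% and 7.44% in nid-sEVs and 2.64%, 4.09% and 8.54% in aid-sEVs, and the groups overlapped (p = 0.30 by the same exact test).

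**Figure D4:**
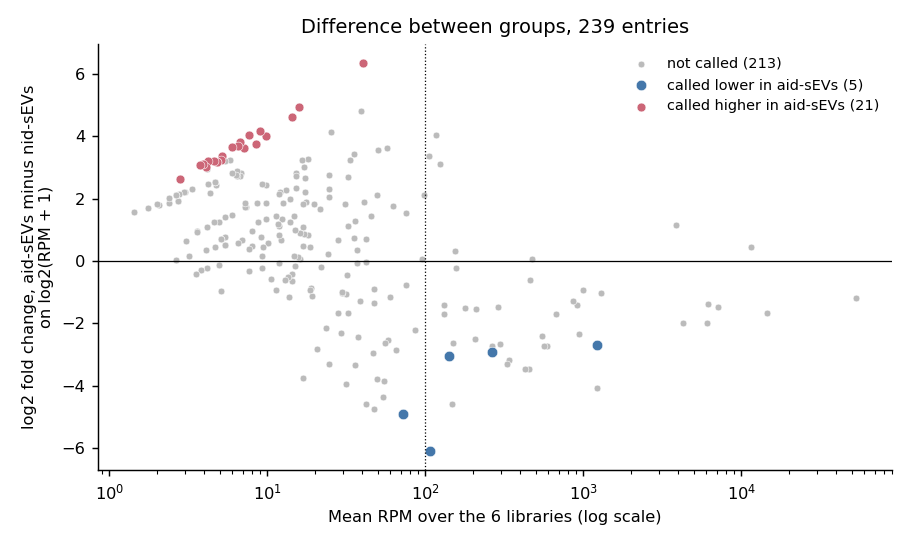
Log2 fold change of aid-sEVs over nid-sEVs on the log2(RPM + 1) scale (y axis) against the mean RPM over the 6 libraries (log x axis) for the 239 numbered entries, with the 21 called higher in red, the 5 called lower in blue and a dotted line at 100 RPM. The 21 lie to the left of the line, and right of it 36 of the 43 entries lie below 0.

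The largest of the entries called lower was 15_34218. It had 2067, 2101 and 1959 RPM in nid-sEVs, where its replicates differed by only 1.07-fold, and 221, 167 and 859 RPM in aid-sEVs. The groups did not overlap, and the mean in nid-sEVs was 4.91 times that in aid-sEVs. The log2 fold change of -2.68 had an SE of 0.69 (limma, adjusted p = 0.046), and the entry was called in 9 of 18 other settings.

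The entry 10_11188 fell with the smallest adjusted p of the 5. Its levels were 240, 503 and 673 RPM in nid-sEVs and 57.8, 76.7 and 40.9 RPM in aid-sEVs, without overlap. The reads behind them numbered 31, 33 and 34 against 30, 27 and 5. By limma its log2 fold change was -2.91 with an SE of 0.63 (adjusted p = 0.029), and the call held in 10 of 18 other settings. In 2_52527 the levels were 225, 442 and 98.9 RPM and 17.3, 36.9 and 24.5 RPM. Its log2 fold change by limma was -3.05 with an SE of 0.79 (adjusted p = 0.046). The last library of either group rested on 5 and 3 reads, respectively. These calls stood near the threshold, and 2_52527 held in 7 of 18 other settings.

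The lower calls of 14_30482 and 2_51956 rested on fewer reads. The former was counted 24, 11 and 3 times in nid-sEVs and 9, 1 and 0 times in aid-sEVs, which gives means of 138 ± 68.3 and 6.72 ± 9.30 RPM (SD, n = 3 each). For 2_51956 the nid-sEV libraries had 1, 4 and 29 reads, so that 89.3% of its RPM came from replicate 3, and every aid-sEV library was at 0. Its mean in nid-sEVs was at least 8.73-fold above the highest aid-sEV floor of 24.5 RPM. That bound rested on replicate 3, since replicate 1 lay below this floor at 7.74 RPM and replicate 2 had 60.9 RPM. Both had adjusted p-values of 0.046 and 0.048, and each was called in 6 of the other settings that tested it (15 and 16, respectively).

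Of the 43, 10 were lower in every aid-sEV library and were not called, and the 4 most abundant of these are given here. The levels of 9_94785 were 2865, 1431 and 2256 RPM in nid-sEVs and 15.4, 216 and 532 RPM in aid-sEVs (log2 fold change -4.09, SE 1.29, adjusted p = 0.087 by limma). Those of 4_67859 were 1169, 1416 and 2058 RPM and 483, 423 and 131 RPM, with an adjusted p of 0.055. The corresponding values of 5_73747 were 457, 335 and 2434 RPM and 142, 131 and 65.4 RPM. In 7_83403 they were 557, 640 and 1642 RPM and 368, 162 and 32.7 RPM, and the 2 adjusted p-values were 0.090 and 0.13. In each of the 4 the lowest nid-sEV library stood above the highest aid-sEV library, but replicates of a group differed by up to 34.5-fold.

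When whole reads were tested in place of RPM, the quasi-likelihood test of edgeR could use 39 numbered entries after its filter on low counts. It called 7 of them lower, where 8.57% of the 245 entries it tested were lower, and 0 higher, where 19.6% were. By this test 14 of the 39 had an unadjusted p under 0.05, and DESeq2, which gave an adjusted p to 131 numbered entries, called 23 lower and 1 higher, where 10.5% and 13.6% of the 478 entries with an adjusted p were. The lower calls shared with limma were 3 for edgeR, namely 15_34218, 10_11188 and 2_52527, and all 5 for DESeq2. Among entries that limma did not call, 4 were called lower by both. Their log2 fold changes by edgeR and DESeq2 were -2.37 and -2.11 for 4_67859, -3.61 and -3.35 for 5_73747, -4.16 and -4.02 for 13_23537, and -3.43 and -3.17 for 13_25624. The last 2 are named here after their values were seen.

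The 21 entries called higher were scarce. None had a read in any nid-sEV library, and each had between 5 and 75 reads over the 3 aid-sEV libraries, and together they held 0.447% of the RPM of numbered entries in aid-sEVs. Their mean in aid-sEVs ran from 5.60 to 80.5 RPM with a median of 11.95 RPM, and 20 of the 21 lay under the highest nid-sEV floor of 59.4 RPM. At the aid-sEV means, the 3 nid-sEV libraries together would hold a median of 2.93 reads of such an entry, and under 3 reads for 11 of them. For 18 of these 20, which lay under the floor of every nid-sEV library, a difference between the groups was not detectable at this depth, whatever the adjusted p, and 5_72000 and X_98993 lay above the floor of nid-sEV replicate 1 only. The log2 fold changes, 2.63 to 4.94 for the 20, depend on the added 1 and are no measure of size.

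The exception was 7_84872. From 33, 31 and 11 reads, its aid-sEV libraries reached 63.5, 88.0 and 89.97 RPM, while no nid-sEV library had a read of it. Its mean of 80.5 ± 14.7 RPM (SD, n = 3) stood at least 1.36-fold higher than the largest of the nid-sEV floors, and the adjusted p was 0.0069 by limma. The call held in 14 of the 15 other settings that tested it, including DESeq2 (adjusted p = 0.0086), and was lost with the replicate number as a block (adjusted p = 0.079 by limma).

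Of the remaining 20, the largest increases on the fitted scale were those of 5_72000, with 46.2, 17.0 and 32.7 RPM in aid-sEVs, and of X_98993, with 38.5, 39.8 and 8.18 RPM. Below these came 3_58503, 4_65571, 18_45137, 1_5617, 7_82391, 19_49094 and 12_20156, with means between 11.95 and 19.7 RPM in aid-sEVs from 11 to 15 reads each. Among entries whose groups did not overlap, 12_21667 was more abundant than all of these but 7_84872, with 19.3, 68.1 and 139 RPM in aid-sEVs and 1, 0 and 0 reads in nid-sEVs, and was not called (adjusted p = 0.054 by limma).

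**Figure D5:**
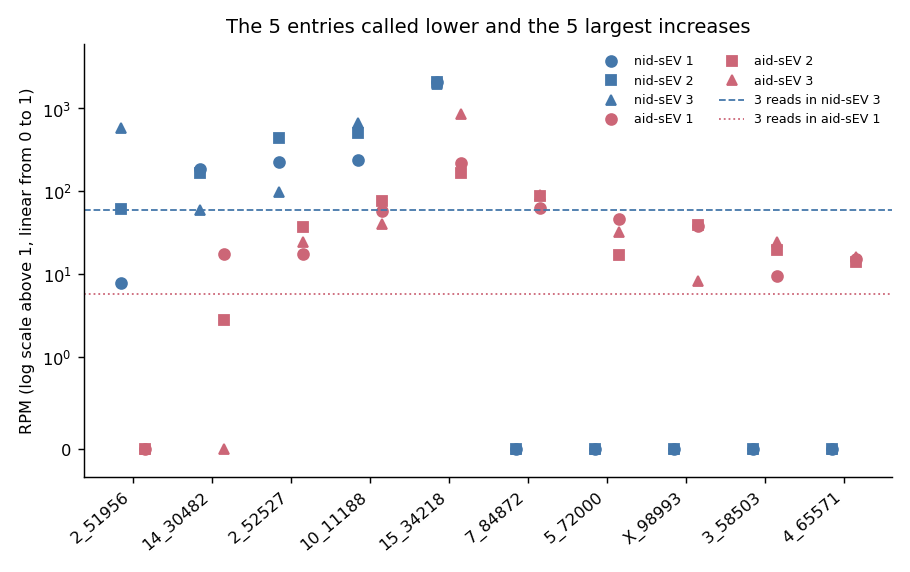
RPM in each library of the 5 numbered entries called lower and of the 5 with the largest increases among those called higher (y axis logarithmic above 1 and linear from 0 to 1), with nid-sEVs in blue, aid-sEVs in red and the replicate given by the shape. The dashed line marks 3 reads in nid-sEV replicate 3 (59.4 RPM) and the dotted line 3 reads in aid-sEV replicate 1 (5.78 RPM); only 7_84872 among the increases lies above the dashed line in all aid-sEV libraries.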

How the data were processed

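Small RNA libraries from nid-sEVs and aid-sEVs (3 each) were sequenced on an Illumina platform and processed by a company. The authors deposited 1 table, in which levels are RPM. The submitters' processing notes list fastp 0.23.0, HISAT2 2.2.1 and the build GRCm38 without a role, and the counter and the filter on entries are not given in the sources used here. The deposited columns of the authors' own comparison (log2 fold change, log2 abundance, p-value and false discovery rate) were not used.

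Libraries were grouped by their titles. The RPM of 1 read was taken as the smallest value above 0, and 100% of values were then whole reads within 0.01. Totals ran from 50534 to 519315 reads. Entries were compared with limma 3.58.1 (trend, no block, no filter) in R 4.3.3 on log2(RPM + 1) over all 718 entries with Benjamini-Hochberg adjustment. edgeR 4.0.16 and DESeq2 1.42.0 served as alternatives on these reads. Values per library were compared with exact permutation tests (SciPy 1.17.1). Detection at equal depth is the exact expectation for a draw of 50534 reads. The scripts were tested on simulated reads.

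The members, lists and rules were chosen with earlier results of these data known. Entries are named when they are among the 10 highest by mean RPM, are the highest of a library, are called (up to 10 increases and 10 decreases by log2 fold change), are among the 5 most abundant without overlap in each direction, have 1 of the 3 largest ratios between replicates among entries detected in all libraries, or have values identical to another entry with at least 10 reads in all (0 entries). The alternatives covered pseudocounts, filters, scaling, thinning, a replicate block, each library left out and other tests and measures. A filter at a mean of 100 RPM was added after the values were seen.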

Additional observations from a re-analysis of the deposited data

How the results depend on the processing

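The summed share, the number of entries at equal depth and the share of the highest entry kept their direction under every alternative run. With each library left out in turn, the differences of aid-sEVs minus nid-sEVs ranged from -13.6 to -1.59 percentage points, from 7.37 to 27.6 entries and from 7.25 to 21.5 percentage points, and no exact test could pass. The smallest share difference, -1.59, was that without nid-sEV replicate 1.

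The counts of called entries were not stable. Against 21 higher and 5 lower, a pseudocount of 10 gave 3 and 3, a mean RPM of at least 10 gave 3 and 2, entries above 0 in all libraries 0 higher (6 lower), a mean of at least 100 RPM 0 higher (6 lower), thinning to the smallest library 7 and 3, edgeR's quasi-likelihood test 0 (7 lower) and DESeq2 1 and 23. A pseudocount of 0.1 gave 2 lower and RPM divided by TMM factors gave 0 lower, with 24 higher in both. Over all entries, TMM moved the median from 1.11 to 1.43 (log2). The calls ranged from 1 to 34 higher and from 0 to 11 lower with single libraries left out. Without nid-sEV replicate 1 there were 28 and 11, without replicate 2 there were 1 and 0, and without replicate 3 there were 3 and 1. Without aid-sEV replicates 1, 2 and 3 there were 22 and 1, 27 and 0, and 34 and 2. The cause of these changes was not tested, except that the filters test fewer entries and remove those at low RPM. With the replicate number as a block 0 were called in either direction, and 43 had an unadjusted p under 0.05 by limma. The deviations of same-numbered libraries correlated at -0.053, 0.058 and -0.051 over all entries. Over the numbered entries they correlated at -0.185, 0.065 and -0.179. With 3 libraries in a group these values cannot settle whether same-numbered libraries were prepared together, and the sources used here do not say.

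Among the named entries, 2 changed sign. The log2 fold change of 10_10553 ranged from -4.09 to 0.015 (without aid-sEV replicate 1) with single libraries left out, and was 0.23 by edgeR and 0.36 by DESeq2. That of 16_35739 was -0.73, -0.66 and -0.84 without nid-sEV replicates 2 and 3 and aid-sEV replicate 3, in a range up to 2.68, and was -1.64 by edgeR and -1.48 by DESeq2. The cause was not tested. Counting error limits the 77 entries with at most 10 reads in all.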
